A study of Mus musculus with 17 samples.

Results

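*T2*, *Reln*, *Itpkb*, *Rims3* and *Robo1* are 5 genes that were selected on their decreases in islets of HFD-fed *Pax4* R192H mice or HFD-fed *Pax4* βiKO mice, as measured in the bulk RNA-seq tables analysed here. They are 5 of the 78239 gene identifiers in the table of *Pax4* R192H and wildtype islets, of which 19137 had enough reads to be tested, and 5 of the 73212 identifiers in the table of *Pax4* βiKO and control islets, of which 20167 were tested. All 5 passed the filter on low counts in both tables. Their decreases on an HFD chose them, so these are given as a description with no p-values, and where a count of calls is given for them it follows from that choice and supports nothing.

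The islets came from male mice. The first table holds 3 wildtype and 3 *Pax4* R192H samples at 12 weeks of age on a standard chow diet (SCD), and 3 samples of each genotype at 16 weeks of age after 4 weeks of a high-fat diet (HFD), so diet and age changed together. *Pax4* R192H mice were homozygous for an R200H substitution knocked into the mouse gene, which matches R192H of human PAX4, and the wildtypes were littermates on the same C57BL6/N background. The second table holds 2 control and 3 *Pax4* βiKO samples. *Pax4* βiKO mice carried floxed *Pax4* alleles and the tamoxifen-inducible *Pdx1-CreERT2*, which follows the *Pdx1* promoter and not an insulin promoter. Controls carried the floxed alleles without the Cre, so the presence of CreERT2 and the deletion cannot be told apart between these groups. All 5 of these samples came from mice that had 8 weeks of HFD, begun at an age of 12 weeks, and that had earlier been injected with tamoxifen (age 7 to 9 weeks), the controls included. Each sample is labelled a biological replicate, and the labels do not say whether islets of several mice were combined, so p-values measure the spread between these samples.

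Total expected counts were 24268157 to 42679645 per sample in the first table and 28618835 to 31887537 in the second. A pair of identifiers without a symbol in the annotation used here took 36.2% to 53.3% of the counts in the first table and 5.40% to 6.49% in the second. The tables were normalised separately, so levels are compared only within a table. *Pax4* itself was listed at 0 counts in all 17 samples, so the tables do not check the genotype labels. The 12 markers of β cells were detected in every sample, as the tissue label says.

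The 5 genes belong to different systems. *Reln* encodes reelin, a large secreted glycoprotein that binds the receptors VLDLR and LRP8 and acts through the adaptor DAB1, best known for placing neurons in the developing brain. *Robo1* encodes a receptor for the secreted Slit proteins, which guide axons and migrating cells. *Itpkb* encodes a kinase that adds a phosphate to inositol trisphosphate, the second messenger that opens calcium channels of the endoplasmic reticulum. *Rims3* encodes a short member of the RIM family, proteins of the site where vesicles dock and fuse, and β cells release insulin granules by related machinery. *T2*, named brachyury 2, lies near the brachyury gene *T* on mouse chromosome 17. PAX4 is a transcription factor with a paired domain and a homeodomain.

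On GRCm38, all 5 are annotated as protein-coding genes in GENCODE M21. *T2* (ENSMUSG00000058159) lies at chr17:8355992-8423513 on the plus strand, and *Reln* (ENSMUSG00000042453) at chr5:21884454-22344702 on the minus strand. *Itpkb* (ENSMUSG00000038855) lies at chr1:180330485-180424802, *Rims3* (ENSMUSG00000032890) at chr4:120854816-120896579 and *Robo1* (ENSMUSG00000022883) at chr16:72308306-73046095, all on the plus strand. The 250 bases before the RefSeq start are printed 5′ to 3′ for the 4 genes of the 5 with an entry in the RefSeq promoter table (GRCm38.p6), because PAX4 binds DNA in part through a homeodomain and these windows show which of the genes that moved together carry a homeodomain core. Capitals mark the core TAAT or its reverse complement ATTA. The windows lie at chr5:22344706-22344955 on the minus strand for *Reln*, and on the plus strand at chr1:180330226-180330475 for *Itpkb*, chr4:120854549-120854798 for *Rims3* and chr16:72662899-72663148 for *Robo1*, whose RefSeq start falls inside the longer GENCODE gene.
Reln: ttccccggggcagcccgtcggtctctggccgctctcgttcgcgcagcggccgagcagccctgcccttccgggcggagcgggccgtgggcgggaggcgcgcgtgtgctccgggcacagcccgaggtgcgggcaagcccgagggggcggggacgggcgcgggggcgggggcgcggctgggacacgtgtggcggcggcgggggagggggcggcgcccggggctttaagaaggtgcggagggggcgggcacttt
Itpkb: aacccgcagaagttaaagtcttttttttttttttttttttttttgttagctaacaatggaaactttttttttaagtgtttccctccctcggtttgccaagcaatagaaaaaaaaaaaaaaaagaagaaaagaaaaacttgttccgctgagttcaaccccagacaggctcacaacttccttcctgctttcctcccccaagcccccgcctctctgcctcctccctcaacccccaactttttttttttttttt
Rims3: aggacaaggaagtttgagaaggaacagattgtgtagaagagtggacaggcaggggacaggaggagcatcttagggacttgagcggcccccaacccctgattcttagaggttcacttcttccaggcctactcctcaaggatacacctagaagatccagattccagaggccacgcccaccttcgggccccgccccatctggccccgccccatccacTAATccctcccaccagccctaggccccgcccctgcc
Robo1: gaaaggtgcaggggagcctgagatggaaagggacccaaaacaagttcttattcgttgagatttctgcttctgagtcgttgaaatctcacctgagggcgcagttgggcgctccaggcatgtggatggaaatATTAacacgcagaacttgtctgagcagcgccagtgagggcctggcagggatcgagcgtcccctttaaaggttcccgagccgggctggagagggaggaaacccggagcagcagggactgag

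The windows of *Rims3* and *Robo1* held 1 core each and those of *Reln* and *Itpkb* none, whereas 54.9% of 32851 mouse promoters of the same length held at least 1. The longer palindrome TAATTA was in none of the 4 windows and in 4.84% of all promoters. E-boxes (CANNTG, palindromic in form) numbered 1 in *Reln*, 1 in *Rims3*, 3 in *Robo1* and 0 in *Itpkb*, against 66.2% of all promoters with at least 1. None of the 4 held a TATA box (TATAAA, searched on both strands), which 12.4% of all promoters did. GC content was 80% in *Reln*, 59.6% in *Rims3*, 56% in *Robo1* and 38.4% in *Itpkb*, on both sides of the median of 52.4%. No motif searched was shared by all 4 windows, and a match in a window is only a match of letters.

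*T2* had the largest fold difference of the 5 in the HFD-fed *Pax4* R192H islets. In read counts scaled to a common library size (CPM), it was at 9.36, 8.39 and 9.27 in HFD-fed wildtype islets and at 0.50, 1.05 and 1.60 in HFD-fed *Pax4* R192H islets. The groups were far apart, and the 3 low values rested on 14 to 52 counts each. The log2 fold change was -3.08 (SE 0.31), an 8.46-fold lower level. On an SCD, *T2* was at 10.8, 10.004 and 10.9 CPM in wildtype and at 11.5, 9.16 and 6.99 CPM in *Pax4* R192H islets, and the groups overlapped. In the second table it was at 14.9 and 12.8 CPM in controls and at 5.34, 6.29 and 6.19 CPM in *Pax4* βiKO islets. Every knockout sample was below both controls, with a log2 fold change of -1.22 (SE 0.15), or 2.33-fold lower.

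*Reln*, the secreted ligand, was the least abundant of the 5 per length of transcript. It was at 11.9, 4.13 and 6.72 CPM in HFD-fed wildtype islets and at 1.15, 0.92 and 1.54 CPM in HFD-fed *Pax4* R192H islets. The 3 wildtype values were scattered over a wide range, yet the lowest of them lay above every *Pax4* R192H value. The log2 fold change was -2.64 (SE 0.40), or 6.24-fold lower. On an SCD the values were 3.27, 5.77 and 7.05 CPM in wildtype and 4.04, 4.61 and 5.95 CPM in *Pax4* R192H islets, with all *Pax4* R192H values inside the wildtype range. In the second table *Reln* was at 5.76 and 5.67 CPM in controls and at 1.53, 3.42 and 2.08 CPM in *Pax4* βiKO islets. The groups did not overlap, the knockout samples differed among themselves by more than the controls did, and the log2 fold change was -1.28 (SE 0.32).

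*Itpkb*, the inositol trisphosphate kinase, was the most abundant of the 5 in CPM. HFD-fed wildtype islets were at 124, 64.8 and 80.2 CPM and HFD-fed *Pax4* R192H islets at 51.6, 43.7 and 46.9 CPM. The *Pax4* R192H samples were close together below the wildtype samples, of which the first stood well above the other two. The log2 fold change was -0.92 (SE 0.19), or 1.89-fold lower. On an SCD *Itpkb* was at 67.3, 65.1 and 82.6 CPM in wildtype and at 66.9, 69.7 and 63.2 CPM in *Pax4* R192H islets, and the groups overlapped. In the second table it was at 112 and 115 CPM in controls and at 65.7, 69.8 and 70.1 CPM in *Pax4* βiKO islets. The spread within both groups was small beside the gap between them, and the log2 fold change was -0.73 (SE 0.08), or 1.66-fold lower.

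*Rims3*, the RIM family member, was at 79.9, 42.3 and 54.2 CPM in HFD-fed wildtype islets and at 25.4, 24.6 and 38.6 CPM in HFD-fed *Pax4* R192H islets. The highest *Pax4* R192H sample came within a few CPM of the lowest wildtype sample, without overlap. The log2 fold change was -0.99 (SE 0.22), or 1.99-fold lower. On an SCD the wildtype values of 43.1, 56.0 and 47.5 CPM surrounded the *Pax4* R192H values of 45.5, 47.6 and 46.95 CPM. In the second table *Rims3* was at 101 and 96.8 CPM in controls and at 51.7, 60.8 and 49.8 CPM in *Pax4* βiKO islets. All 3 knockout samples were below both controls, with a log2 fold change of -0.87 (SE 0.10), or 1.83-fold lower.

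*Robo1*, the Slit receptor, was the only gene of the 5 whose groups overlapped on an HFD in the first table. It was at 28.6, 10.8 and 14.9 CPM in wildtype and at 11.7, 8.77 and 9.96 CPM in *Pax4* R192H islets, so that the highest *Pax4* R192H sample exceeded the lowest wildtype sample. The log2 fold change of -0.84 (SE 0.31) shrank to -0.34 without the first wildtype sample on HFD and grew to -1.10 without the second. On an SCD *Robo1* was at 12.4, 23.7 and 16.9 CPM in wildtype and at 15.4, 14.9 and 17.5 CPM in *Pax4* R192H islets, which lay inside the wildtype range. In the second table the values were 34.9 and 32.2 CPM in controls and 18.7, 19.4 and 18.1 CPM in *Pax4* βiKO islets. Here the groups were well separated, and the log2 fold change was -0.84 (SE 0.09), or 1.79-fold lower.

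**Figure D1:**
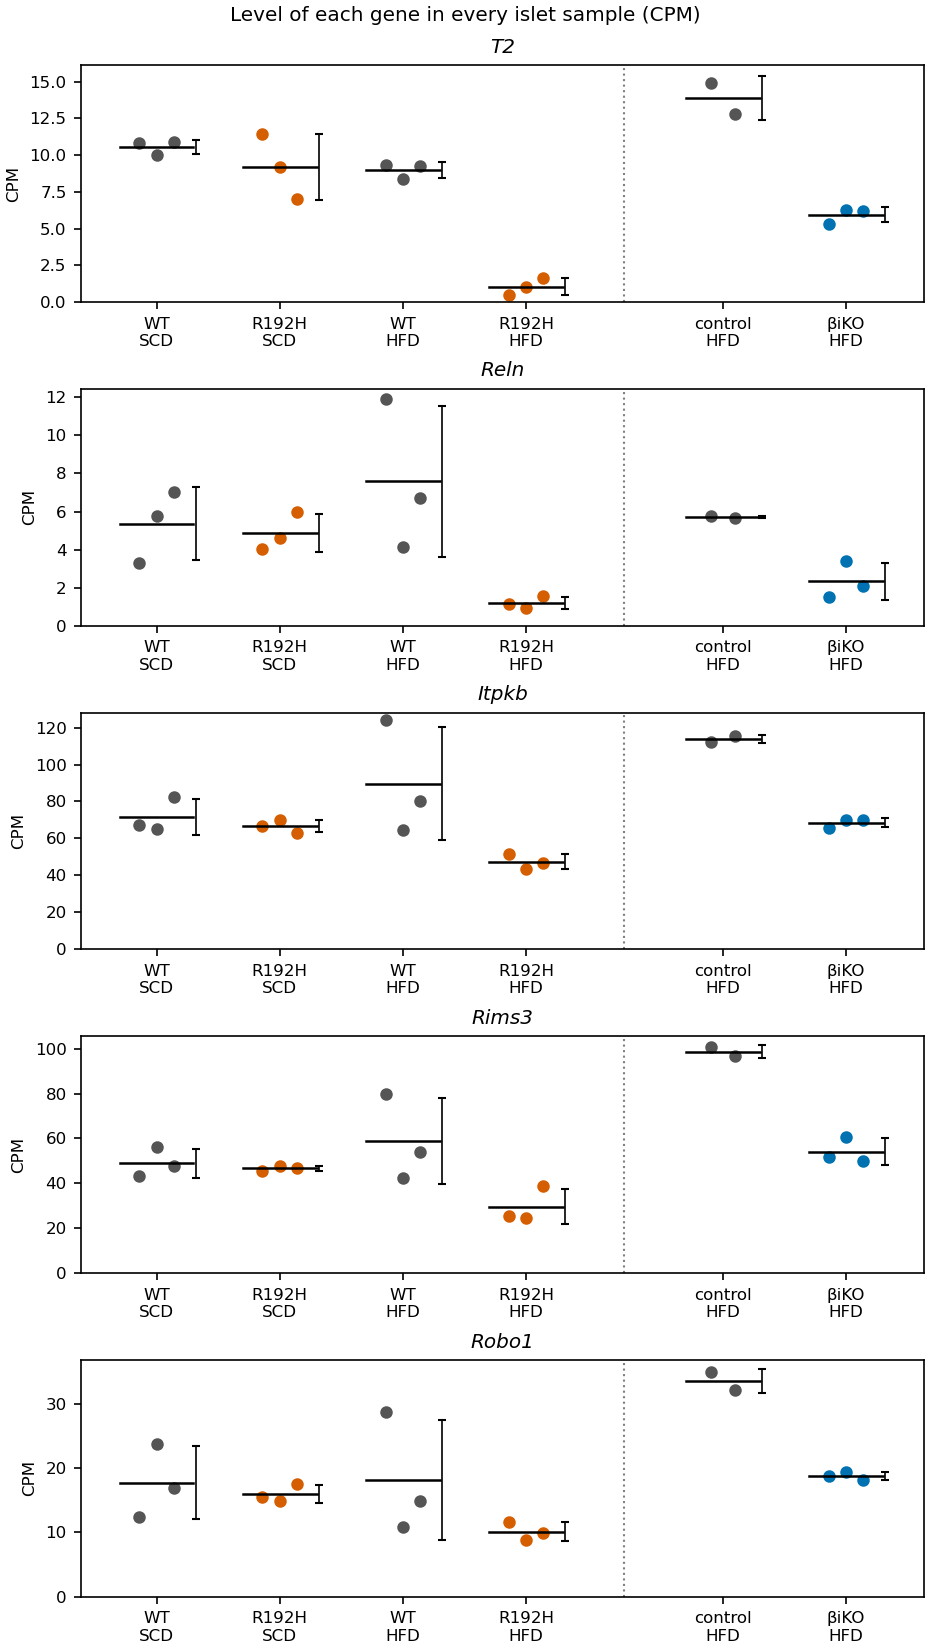
Level of each gene in CPM (vertical axis, from 0) in every islet sample of the 6 groups, with the group mean as a line and the SD as a bar; the dotted line separates the tables, which were normalised on their own. *Pax4* R192H samples on HFD lie below the other groups of the first table for all 5 genes except for 1 *Robo1* value, and *Pax4* βiKO samples lie below both controls throughout.

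Ordered by group mean, *T2* stood at 10.6 ± 0.49 CPM (SD, n = 3) in SCD-fed wildtype, 9.20 ± 2.24 CPM in SCD-fed *Pax4* R192H, 9.01 ± 0.53 CPM in HFD-fed wildtype and 1.05 ± 0.55 CPM in HFD-fed *Pax4* R192H islets, where SCD-fed *Pax4* R192H islets overlapped both wildtype groups, while the wildtype groups did not overlap each other and differed by less than either did from HFD-fed *Pax4* R192H islets. For *Reln*, *Itpkb*, *Rims3* and *Robo1* the order was HFD-fed wildtype, SCD-fed wildtype, SCD-fed *Pax4* R192H and HFD-fed *Pax4* R192H. The HFD-fed wildtype mean was the highest but also the most variable, at 7.58 ± 3.95 CPM for *Reln*, 89.7 ± 30.7 CPM for *Itpkb*, 58.8 ± 19.2 CPM for *Rims3* and 18.1 ± 9.34 CPM for *Robo1*. Its first sample was the highest of the 12 for these 4 genes. For these 4 genes, neighbours in the order other than the last step did not differ beyond these spreads. The last group in the order stood at 1.2 ± 0.31 CPM for *Reln*, 47.4 ± 3.94 CPM for *Itpkb*, 29.6 ± 7.87 CPM for *Rims3* and 10.1 ± 1.45 CPM for *Robo1*.

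Divided by the length of all exons, the level in SCD-fed wildtype islets was 6.85 CPM per kb for *Itpkb*, 6.13 for *Rims3*, 3.69 for *T2*, 1.07 for *Robo1* and 0.23 for *Reln*. In the controls of the second table *Rims3* came first at 12.4 CPM per kb, followed by *Itpkb* at 10.9, *T2* at 4.85, *Robo1* at 2.03 and *Reln* at 0.24. In HFD-fed *Pax4* R192H islets *T2* had dropped below *Robo1* in this order, at 0.37 against 0.61 CPM per kb. Whole islets were sequenced, so fewer cells that express a gene and less RNA per cell cannot be told apart.

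The comparison on SCD is the 1 genotype comparison that did not choose the genes, and it asks whether the variant lowered them before the dietary challenge. All 5 log2 fold changes of *Pax4* R192H against wildtype were slightly below 0, and none of the 5 genes was called (edgeR's quasi-likelihood test, adjusted p of 1 for each, where a call needs a log2 fold change beyond 0.5 in size and an adjusted p under 0.05). The test called 0% of all genes in either direction on SCD. *T2* had a log2 fold change of -0.20 with a 95% interval from -0.76 to 0.37, and *Reln* one of -0.15 from -0.92 to 0.63. *Itpkb* stood at -0.11 from -0.52 to 0.31, *Rims3* at -0.07 from -0.53 to 0.40, and *Robo1* at -0.15 from -0.80 to 0.50. Unadjusted edgeR p-values ran from 0.468 to 0.764. No member was lower in SCD-fed *Pax4* R192H islets without overlap between the groups, as 4.22% of all tested genes were. Leaving out 1 sample at a time turned the sign for *Reln* and *Itpkb* (without the third wildtype sample, 0.12 and 0.03) and for *Rims3* and *Robo1* (without the second, 0.04 and 0.12).

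On HFD, 4 of the 5 genes passed edgeR's call in *Pax4* R192H against wildtype, all except *Robo1*, where 0.82% of all tested genes were called lower. The same 4 had no overlap between the groups, beside 9.89% of all tested genes that were lower without overlap. In the *Pax4* βiKO comparison 4 of the 5 also passed, all except *Reln*, where only 0.0298% of tested genes were called lower, and all 5 were lower without overlap, beside 16.7% of tested genes. These comparisons chose the genes, so nothing is read from the counts. *T2* and *Reln* were called on HFD with any 1 sample left out, whereas *Itpkb* was called only without the second wildtype sample and *Rims3* only without that sample or the third *Pax4* R192H sample. Without the third knockout sample, *Itpkb*, *Rims3* and *Robo1* were called in *Pax4* βiKO islets, and 0 of the 5 were called without either control or either other knockout sample. A fit without a control compares the knockouts with a single control, whose spread is then assumed to be theirs. The log2 fold changes stayed between -1.33 and -1.11 for *T2*, -1.66 and -1.05 for *Reln*, -0.75 and -0.70 for *Itpkb*, -0.97 and -0.81 for *Rims3* and -0.89 and -0.78 for *Robo1* in these 5 fits. DESeq2, the tool the study used, called 4 of the 5 lower on HFD in *Pax4* R192H islets (1.78% of the genes with an adjusted p) and all 5 in *Pax4* βiKO islets (1.22%). The median log2 fold change of the 5 genes was -0.15 on SCD, -0.99 on HFD and -0.87 in *Pax4* βiKO islets, and that of all tested genes was 0.00, -0.01 and 0.01.

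Of the 5, which were chosen for this, *T2*, *Itpkb* and *Rims3* were called lower in both models by edgeR. Over all genes 4 were, and the fourth was *Trpm5*, which encodes a calcium-activated cation channel of β cells and was singled out after its values were seen. *Trpm5* had a log2 fold change of -1.65 (SE 0.24, adjusted p = 0.0053 by edgeR) in HFD-fed *Pax4* R192H islets and -1.14 (SE 0.09, adjusted p = 0.00732) in *Pax4* βiKO islets. DESeq2 called 44 genes lower in both, 4 of the 5 among them. *T2* and *Reln* differed by more in the knock-in than in the knockout, -3.08 and -2.64 against -1.22 and -1.28, while *Itpkb*, *Rims3* and *Robo1* had differences of like size in both. The models differ in age, time on HFD and sequencing table, and the difference between them was not tested.

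**Figure D2:**
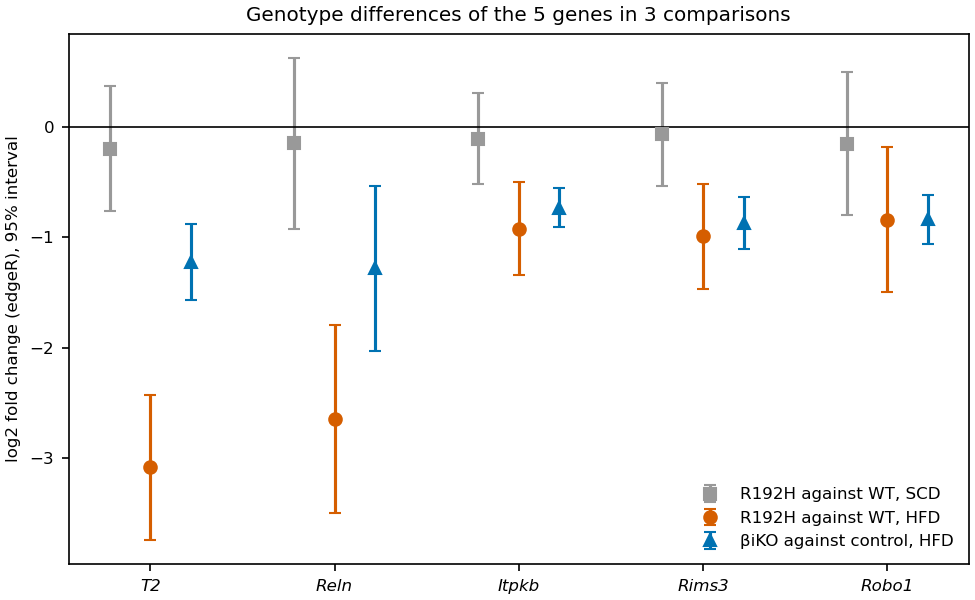
Log2 fold change of each gene (edgeR, points) with its 95% interval (bars) for *Pax4* R192H against wildtype on SCD, the same on HFD, and *Pax4* βiKO against control. The SCD points lie between -0.20 and -0.07 with intervals across 0, and the points of both HFD comparisons, which chose the genes, lie between -3.08 and -0.73.

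The difference of genotype effects between the diets, which shares the HFD samples with the choice of genes, had a log2 value of -2.88 (SE 0.40) for *T2*, -2.50 (SE 0.53) for *Reln*, -0.82 (SE 0.27) for *Itpkb*, -0.92 (SE 0.31) for *Rims3* and -0.69 (SE 0.43) for *Robo1*. Without the first wildtype sample on HFD it was -0.19 for *Robo1* and -0.51 for *Itpkb*. With the mean level of acinar markers as a covariate it was -2.08 for *T2*, -2.59 for *Reln*, -0.94 for *Itpkb*, -0.54 for *Rims3* and -0.69 for *Robo1*. Between SCD and HFD, wildtype islets changed in level by -0.23 (*T2*), 0.50 (*Reln*), 0.32 (*Itpkb*), 0.27 (*Rims3*) and 0.03 (*Robo1*) on the log2 scale. The 95% interval of each of these 5 included 0. In *Pax4* R192H islets the same step was -3.11 for *T2*, -1.997 for *Reln*, -0.49 for *Itpkb*, -0.66 for *Rims3* and -0.65 for *Robo1*. The 95% interval left out 0 for the first 4 of these and reached from -1.31 to 0.01 for *Robo1*. These steps rest on the HFD samples that chose the genes. Diet cannot be told apart from the 4 weeks of age between these groups.

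Other cell types of the preparation moved with the HFD comparison. In HFD-fed *Pax4* R192H islets the summed level of the 21 acinar markers, digestive enzyme genes of the exocrine pancreas, ranged from 34386 to 95682 CPM against 15719 to 23485 CPM in HFD-fed wildtype islets, and 6 of the 21 were called higher (*Cela3b*, *Spink1*, *Cuzd1*, *Pnliprp1*, *Prss2* and *Amy2b*). Of the 12 β cell markers, *Trpm5*, *Slc30a8*, *Glp1r* and *Slc2a2* were called lower and 8 were not called, and their summed level, led by the hormone genes, was 98561 to 109426 CPM against 65345 to 93516 CPM. The α cell markers *Gc* and *Ttr* and the duct marker *Krt18* were called higher, and no marker of δ cells, endothelium, lymphatics, stroma, macrophages, lymphocytes or glia was called in either direction. Summed duct markers were at 384 to 402 against 235 to 279 CPM in wildtype and lymphatic markers at 4.94 to 5.04 against 6.15 to 8.505 CPM, and the summed levels of the other lists overlapped between the groups. Apart from the acinar markers, the part of these lists in the decreases was not tested. With the mean level of the acinar markers as a covariate, the log2 fold changes were -2.40 (SE 0.38) for *T2*, -2.72 (SE 0.64) for *Reln*, -1.03 (SE 0.32) for *Itpkb*, -0.65 (SE 0.33) for *Rims3* and -0.84 (SE 0.52) for *Robo1*. The standard errors grew, and 0 of the 5 genes and 0 of all tested genes were called lower in that fit, for which the covariate differs between the groups without overlap.

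In the second table the acinar markers did not separate the groups. Their summed level was 23186 and 102164 CPM in the controls and 16165 to 78711 CPM in *Pax4* βiKO islets. Each group had 1 high sample, which was replicate 1 in both. No acinar marker was called, and *Trpm5* was the only marker of any of the 11 lists called in *Pax4* βiKO islets. Summed levels of 4 other lists were nevertheless higher in all 3 knockout samples than in both controls: 17239 to 17966 against 12672 to 16345 CPM for α cell markers, 617 to 669 against 521 to 524 for duct, 322 to 384 against 296 to 303 for vascular endothelial and 299.7 to 420.1 against 282 to 296 for stromal markers. Their part in the decreases of the 5 genes was not tested. With the acinar covariate the log2 fold changes of the 5 genes were -1.23 for *T2*, -1.49 for *Reln*, -0.75 for *Itpkb*, -0.89 for *Rims3* and -0.82 for *Robo1*, and 0 of the 5 were called in that fit against 4 without the covariate.

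**Figure D3:**
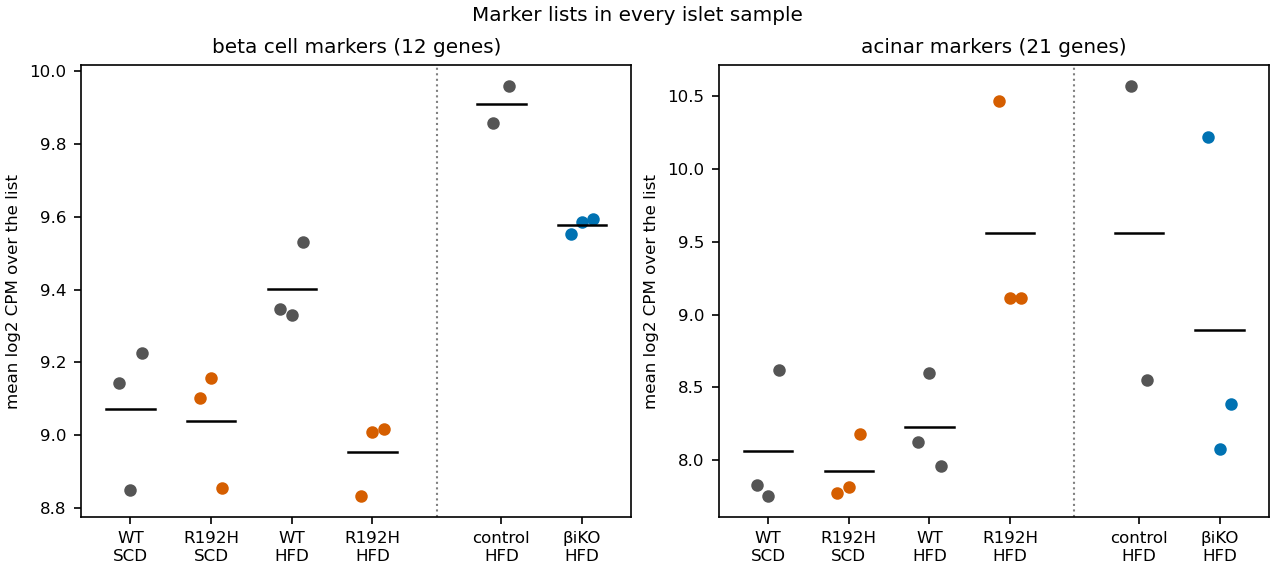
Mean log2 CPM over the 12 β cell markers (left) and the 21 acinar markers (right) in every islet sample, with group means as lines; vertical axes do not start at 0. HFD-fed *Pax4* R192H samples lie above HFD-fed wildtype samples in acinar markers and below them in the mean of the β cell markers, and *Pax4* βiKO samples lie below the controls in β cell markers with the acinar markers overlapping.

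The partners of each gene were taken from 4 lists written by role: reelin signalling, Slit-Robo signalling, inositol phosphate metabolism, and RIM proteins with the active zone. Of 116 listed genes other than the 5, 110 were tested in the first table and 109 in the second. On HFD in *Pax4* R192H islets 5 of the 110 were called, 3 lower and 2 higher, beside 2.28% of all genes called in either direction. Leaving out the second wildtype sample on HFD gave 7 calls, leaving out any 1 of the other 5 HFD samples gave 0, and so did the acinar covariate. On SCD 0 were called (2 with an unadjusted edgeR p below 0.05, 0 by DESeq2). In *Pax4* βiKO islets 0 of 109 were called by edgeR, beside 0.0893% of all genes, with 20 at an unadjusted edgeR p below 0.05. DESeq2 called 5 lower, beside 1.22% of the genes with an adjusted p. For the difference of genotype effects between diets edgeR called 0 of 110, beside 0.131% of all genes, with 15 at an unadjusted edgeR p below 0.05 and 2 called by DESeq2. The shares of all genes at an unadjusted p below 0.05, and of those DESeq2 called for this difference, were not counted. Nothing is read from these counts.

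In reelin signalling, the receptor gene *Vldlr* fell on HFD. It was at 35.5, 25.4 and 23.8 CPM in wildtype and at 17.8, 16.5 and 18.4 CPM in *Pax4* R192H islets, with a log2 fold change of -0.68 (SE 0.15, adjusted p = 0.0344 by edgeR). *Cdk5r1*, which encodes an activator of the kinase CDK5, rose by 0.80 (SE 0.19, adjusted p = 0.0474) from 4.83, 3.34 and 4.04 to 6.62, 7.39 and 7.31 CPM. For both genes the groups did not overlap. The other reelin receptor gene *Lrp8* did not pass at -0.39 (SE 0.23), and the adaptor gene *Dab1* was at 0.585 CPM or less in every sample of the first table. In *Pax4* βiKO islets *Vldlr* was at -0.18 (SE 0.10), *Lrp8* at -0.54 (SE 0.21) and *Cdk5r1* ranged from 8.18 to 9.62 CPM inside the control range of 5.47 to 10.1 CPM. The median of the 25 tested genes of the list was -0.04 on HFD and that of the 24 in *Pax4* βiKO islets 0.04. DESeq2, but not edgeR, called the kinase gene *Gsk3b* lower in the knockout (-0.57, DESeq2 adjusted p = 0.0434).

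In Slit-Robo signalling *Robo2*, the other main Slit receptor gene of islets and also the nearest tested gene to the right of *Robo1* on chromosome 16, fell on HFD. It was at 129, 76.9 and 97.1 CPM in wildtype and at 48.9, 53.2 and 58.6 CPM in *Pax4* R192H islets, with a log2 fold change of -0.91 (SE 0.19, adjusted p = 0.0243 by edgeR). Per length it was the more abundant receptor, at 6.53 CPM per kb in SCD-fed wildtype islets against 1.07 for *Robo1*. In *Pax4* βiKO islets *Robo2* was at 153, 157 and 160 CPM against 220 and 242 CPM in controls, at -0.56 (SE 0.08), and edgeR did not call it (adjusted p = 0.0913) while DESeq2 did (adjusted p = 4.48e-07). On SCD it was at 0.15 (SE 0.18). *Robo4*, the endothelial receptor gene, was at -0.21 (SE 0.35) on HFD and 0.25 (SE 0.23) in *Pax4* βiKO islets. The median over the 22 tested genes of the list was -0.27 on HFD and -0.01 in *Pax4* βiKO islets. DESeq2, but not edgeR, called the actin regulator gene *Enah* lower on HFD (-0.51, DESeq2 adjusted p = 0.0416).

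In inositol phosphate metabolism, *Itpr2*, a receptor gene for inositol trisphosphate, fell on HFD from 35.2, 20.7 and 25.8 CPM in wildtype to 17.6, 13.5 and 14.4 CPM in *Pax4* R192H islets. Its groups did not overlap and its log2 fold change was -0.84 (SE 0.18, adjusted p = 0.0323 by edgeR), against -0.46 (SE 0.13), not called, in *Pax4* βiKO islets. The other two receptor genes were lower without passing, *Itpr1* at -0.62 (SE 0.23) and *Itpr3* at -0.90 (SE 0.23), and DESeq2 called *Itpr3*. It also called the phospholipase gene *Plcg1* lower on HFD (edgeR log2 fold change -0.50, DESeq2 adjusted p = 0.027) and the phosphatase gene *Inpp4a* lower in *Pax4* βiKO islets (-0.74, adjusted p = 0.00169), neither called by edgeR. The paralogous kinase genes were far less abundant than *Itpkb*, with *Itpkc* at 1.06 and *Itpka* at 0.39 CPM per kb in SCD-fed wildtype islets. Neither was called, with *Itpkc* at -0.09 (SE 0.16) on HFD and 0.04 (SE 0.15) in *Pax4* βiKO islets, and *Itpka* at -0.40 (SE 0.42) and 0.13 (SE 0.24). The median over the 35 tested genes of the list was -0.09 on HFD and 0.04 in *Pax4* βiKO islets.

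Among RIM proteins and the active zone, *Rab3d*, a GTPase gene of secretory vesicles, rose on HFD from 110, 139 and 123 CPM in wildtype to 190, 201 and 198 CPM in *Pax4* R192H islets. Its log2 fold change was 0.66 (SE 0.15, adjusted p = 0.0377 by edgeR), and in *Pax4* βiKO islets it was at 0.10 (SE 0.09). Acinar markers were also higher in the HFD-fed *Pax4* R192H samples. The fit with the acinar covariate called no gene of the lists, and so not *Rab3d*. That covariate differs between these groups without overlap, so genotype and acinar signal cannot be told apart for this rise. *Rims2*, the RIM gene at 3.90 CPM per kb in SCD-fed wildtype islets against 6.13 for *Rims3*, was at -0.22 (SE 0.16) on HFD and -0.16 (SE 0.09) in *Pax4* βiKO islets. *Rims1* and *Rims4* were below 1 CPM in every sample of the first table. The median over the 28 tested genes of the list was 0.12 on SCD, -0.21 on HFD and -0.15 in *Pax4* βiKO islets. DESeq2 called the scaffold gene *Bsn* (edgeR log2 fold change -0.78, DESeq2 adjusted p = 0.0437) and the calcium channel gene *Cacna1a* (-0.60, adjusted p = 0.0378) lower in the knockout, which edgeR did not.

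**Figure D4:**
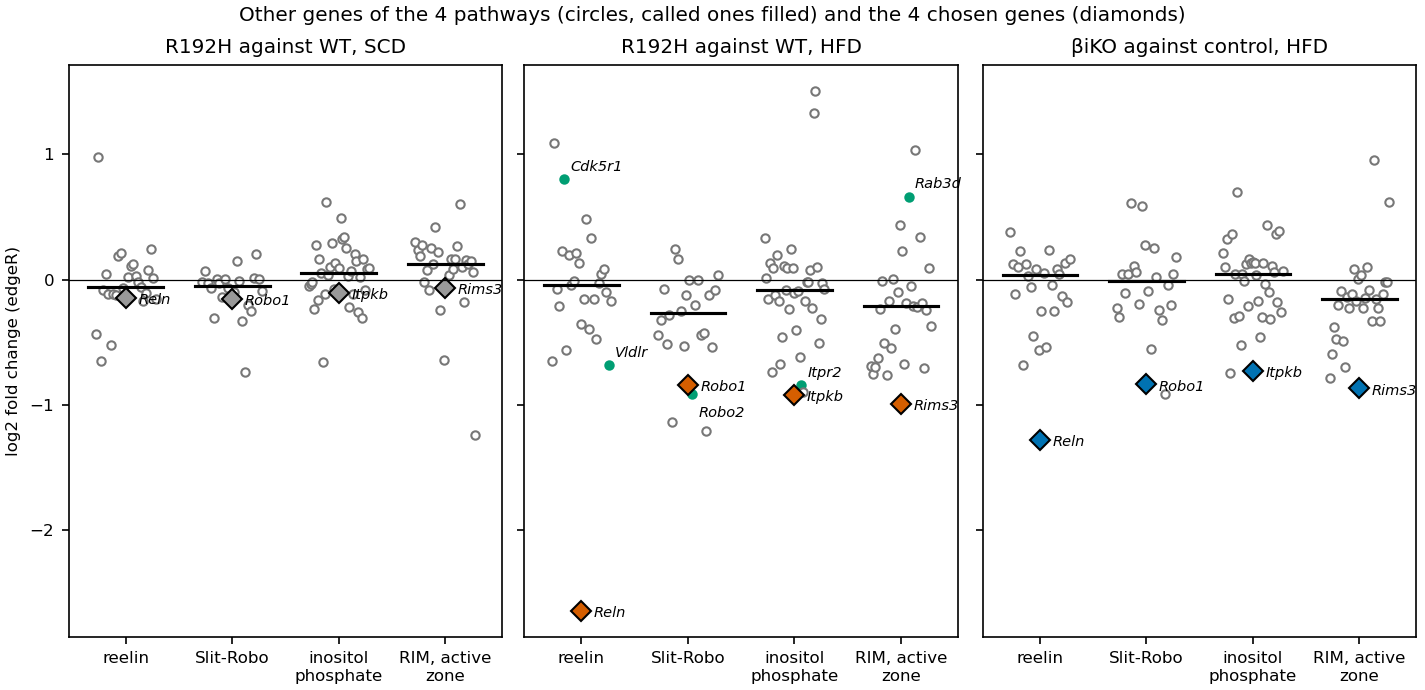
Log2 fold change (edgeR, vertical axis) of the other genes of the 4 lists (circles, filled green and named where called), their median (line) and the chosen gene of each list (diamond) in 3 comparisons. Called genes appear only in the HFD panel of *Pax4* R192H against wildtype, with *Vldlr*, *Robo2* and *Itpr2* below 0 and *Cdk5r1* and *Rab3d* above, and *Reln*, at -2.64 and -1.28, is far below its list.

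The levels of the 5 genes varied together over the 12 samples of the first table, which share the 4 groups and so the contrast that chose the genes. Pearson's *r* of log2 CPM ran from 0.60 (*T2* and *Robo1*) to 0.94 (*Reln* and *Rims3*). With group means removed, *r* among *Reln*, *Itpkb*, *Rims3* and *Robo1* ran from 0.64 to 0.83, and *T2* stood apart with -0.15 to 0.42 against the other 4. These 4 genes varied most in HFD-fed wildtype islets, with SDs of log2 CPM of 0.76, 0.48, 0.46 and 0.72, against 0.09 for *T2*. The first sample of that group was the highest of the 12 for the 4 genes, and *r* without it was not computed. The genes whose log2 CPM was most like that of *T2*, among 13641 tested genes with a mean of at least 1 CPM, were *Gad1* (*r* = 0.986), which encodes an enzyme that makes GABA, *Gm45847* (0.981) and the potassium channel gene *Kcnj12* (0.980). For *Reln* they were *Jade2* (0.968), *Grk5* (0.959) and *Epb41l3* (0.958), and for *Itpkb* the fatty acid receptor gene *Ffar1* (0.945), *Col6a6* (0.941) and *Mllt6* (0.938). For *Rims3* they were *Bhlhe41* (0.968), *Ctdspl* (0.948) and again *Grk5* (0.941), and for *Robo1* the corepressor gene *Tle3* (0.981), *Unc80* (0.963) and *Cabin1* (0.962). In *Pax4* βiKO islets the log2 fold changes of these genes ran from -1.25 (*Kcnj12*) to -0.21 (*Ffar1*), against a median of 0.01 over all tested genes. *Gad1* was at -0.86 and *Grk5* and *Jade2* at -0.62 and -0.63. The correlations did not use these islets, but the choice of the 5 genes did, so nothing is read from the signs.

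Apart from *Robo2*, none of the nearest tested genes on either side was called in any genotype comparison. *Stum*, 7.58 kb from *Itpkb*, was at 0.08 on HFD and 0.17 in *Pax4* βiKO islets, and *Sft2d1*, 28.6 kb from *T2*, at 0.01 and 0.12. *Pde10a* on the other side of *T2* was at 0.60 and -0.18, *Psmc2* and *Orc5* beside *Reln* at 0.36 and 0.27 on HFD and 0.08 and 0.23 in the knockout. Beside *Rims3*, *Nfyc* was at 0.05 and 0.03 and *Exo5* at -0.20 and -0.52. *Gm31728* beside *Itpkb* was at 0.14 and -0.30, and *Gbe1* beside *Robo1* at 0.21 and 0.11. *Itpkb* encloses 3 short loci on its strand with at most 131 counts in a sample, against at least 1042 for *Itpkb*. A transcript that overlaps *T2* on the same strand was listed at 0 in all samples.

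All 5 genes span more than the median gene, though not to the same degree. Of the tested protein-coding genes 99.4% had a smaller span than *Robo1*, 77.5% than *T2* and 65.7% than *Rims3*. *Robo1* spans 738 kb, *Reln* 460 kb, *Itpkb* 94.3 kb, *T2* 67.5 kb and *Rims3* 41.8 kb, against a median of 24.9 kb over 14158 tested protein-coding genes. On HFD the median log2 fold change over genes of the longest spans (60.5 kb or more) was -0.13, against 0.15 over genes of the shortest (up to 10.6 kb), and 1.58% against 0.424% of them were called lower. *Rims3* belongs to neither, and in its span range (24.9 to 60.5 kb) the median was -0.02 and 1.24% were called lower. In *Pax4* βiKO islets the medians of the longest and shortest were -0.07 and 0.10, and on SCD 0.02 and -0.06. The part of gene length in the differences of the 5 genes was not tested.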

How the data were processed

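Islet RNA was sequenced from 12 *Pax4* R192H and wildtype samples and from 5 *Pax4* βiKO and control samples, grouped by their labels, and none was left out. The authors deposited expected counts: STAR v2.7.1 placed the reads on mm10, RSEM v1.3.3 gave the transcript estimates, and tximport added them up by gene. The annotation release and the strand setting are not given in the sources used here. Here the expected counts were rounded. Symbols and coordinates came from GENCODE M21, which matched 90.7% and 89.5% of tested identifiers, and promoters from RefSeq.

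One edgeR quasi-likelihood model (v4.0.16 under R v4.3.3) was fitted per table after TMM normalisation and filterByExpr with a minimum count of 10, with a coefficient per group. A call required a log2 fold change beyond 0.5 in size with an adjusted p under 0.05 (Benjamini-Hochberg, over all tested genes). CPM used TMM library sizes, and log2 CPM a prior count of 2. The scripts were tested on simulated data. Non-overlap means that every value of one group is below every value of the other.

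The genes and lists were chosen with earlier results of these data known. Named besides the 5 genes were each list gene called in any genotype comparison or the interaction (those called only by DESeq2 were added later), the 3 genes of a mean of at least 1 CPM with the highest Pearson correlation to each gene over 12 samples, the nearest tested neighbour on each side, and family members by role. Alternatives were size factors of DESeq2 (v1.42.0), filters, a replicate block, groups, library sizes without the 2 largest genes of the first table (the same identifiers in both tables), an acinar covariate, DESeq2 and each sample left out. Replicate samples of a group differed beyond counting noise (chi-square per degree of freedom 9.98 to 132). Replicate numbers were not treated as pairs.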

Additional observations from a re-analysis of the deposited data

How the results depend on the processing

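No alternative turned the sign of any of the 5 genes in *Pax4* R192H against wildtype on HFD or in *Pax4* βiKO against control. These comparisons chose the genes on the same samples, so nothing is read from the kept signs. On SCD, 0 of the 5 genes were called in every alternative. The 5 genes rest on 14 counts at the least, and each group on 2 or 3 samples, which limits the precision. With size factors of DESeq2, with library sizes without the 2 largest genes of the first table and with at least 10 counts in every sample, the same 4 genes were called in each model as in the main analysis.

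On HFD in the knock-in, leaving out 1 sample gave 2 to 4 of the 5 genes called: *T2* and *Reln* in every case, 2 genes without wildtype samples 1 or 3 or *Pax4* R192H samples 1 or 2, and 3 without *Pax4* R192H sample 3. In *Pax4* βiKO islets it gave 0 to 3, with 3 only without knockout sample 3; 2 of these 5 fits have a single control, and the fold changes of *T2*, *Itpkb*, *Rims3* and *Robo1* moved little. All genes called lower numbered 157 on HFD (32 to 210 with 1 sample left out) and 6 in the knockout (0 to 12). Pathway genes called numbered 0 to 7 on HFD and 0 to 2 for the interaction with 1 sample left out, the highest counts both without wildtype sample 2 on HFD.

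With the replicate number as a block, 2 of the 5 genes were called on HFD (*T2* and *Reln*), 0 pathway genes and 54 genes lower, and in the knockout 1 pathway gene and 39 genes lower. In the first table the numbers did not pair the samples. Deviations of same-numbered samples had a median correlation of -0.03, with 5 of 18 pairs above 0.1, against 0.04 for other pairs. In the second table these medians were 0.06 and -0.04, and replicate 1 had the most acinar signal in both groups. Whether samples with the same number were handled together there cannot be told. With the acinar covariate, 0 of the 5 genes were called in either model, 0 pathway genes and 0 genes lower on HFD, and 1 gene lower in the knockout. With only the groups compared in the model, 2 of the 5 genes and 2 pathway genes were called on HFD and 1 gene lower on SCD; for the knockout this is the main fit. Without a filter on low counts, genes called lower numbered 145 on SCD, 490 on HFD and 362 in the knockout. Pathway genes called numbered 13 on HFD, 7 in the knockout and 9 for the interaction. All 5 genes were then called in both models, with *Robo1* added on HFD and *Reln* in the knockout. DESeq2 called 18 genes lower on SCD, 303 on HFD and 149 in the knockout, and pathway genes numbered 8, 5 and 2 on HFD, in the knockout and for the interaction. The cause of these differences was not tested.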
